A study of Mus musculus with 7 samples.

Results

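The genes described here encode 9 major proteins of central nervous system myelin: Mbp, Mobp, Cnp, Mag, Mog, Opalin, Cldn11, Mal and Gpm6b. They were taken by name from a table of 22880 genes, each name matched 1 row, and all 9 were among the 13866 genes that passed a filter on low levels and were tested. The table holds RNA from optic nerves of mice at postnatal day 14 (P14), on a C57Bl/6 background according to the labels. The 4 control samples came from FASN lox/lox mice, which carry the floxed fatty acid synthase gene without Cre and therefore with the enzyme intact. The 3 mutant samples (cMU) came from olig2cre FASN lox/lox mice, in which Cre is driven by regulatory elements of Olig2 and so deletes the gene in cells of the oligodendrocyte (OL) lineage, progenitors included. The other cells of the nerve, such as astrocytes, microglia, vascular and meningeal cells, are in the same lysate, and both groups carry the floxed allele. The comparison addresses how OLs that cannot make fatty acids themselves differ in the RNA of the proteins they build into myelin. Only the mutant carries Cre, so an effect of the Cre allele is not separated from that of the deletion.

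Myelin is a membrane that an OL extends, wraps around an axon and then compacts. Mbp is the cytoplasmic protein that draws the inner faces of the membrane together, other members sit on the surface that meets the axon, and still others form the tight junctions that run through the sheath. Their genes are switched on together when an OL progenitor cell (OPC) differentiates, under transcription factors that include Olig2, Sox10 and Myrf, and during active myelination they are among the most abundant messages of the tissue. The optic nerve carries the axons of retinal ganglion cells, whose cell bodies lie in the eye, and P14 falls within its period of myelination.

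All values are FPKM (fragments scaled to the length of the gene model and to the size of the library), so levels can be compared between genes. Between samples FPKM depends on the library total, of which the 9 genes are themselves a part. Fits on other scalings are given at the end. Reads per sample, recovered from the steps of the deposited values, numbered 31311812 to 43458919 in the control and 27453278 to 35748036 in the mutant, and each of the 9 genes had between 6549 and 2425925 reads in every sample, so that counting error is small beside the spread between samples. Fasn, the deleted gene, was at 210.3, 169.1, 211.1 and 228.3 FPKM in control samples 1 to 4 and at 69.3, 50.52 and 48.98 FPKM in mutant samples 1 to 3. It was thus at 27.5% of the control mean, with every mutant sample below every control (log2 fold change -1.86 ± 0.14 SE, adjusted p = 0.00312, limma-trend), the direction that the labels name. This value counts reads over the whole gene, also from cells in which Cre is not driven. Differences were tested by limma-trend on log2(FPKM + 0.5), adjusted by Benjamini-Hochberg over all 13866 genes, with a threshold of 0.05. Nothing in the labels states whether the numbered samples of both genotypes are littermates. Deviations of same-numbered samples from their group means were positively correlated, though the weakest such pair lay below the highest pair of unlike numbers. The fit with the replicate number as a block is given where it changes a call. Control sample 4 has no mutant sample of its number, so it adds nothing to the fold changes of the block fit.

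The promoters of Mag, Cnp and Mobp are shown because these genes lay below every control sample in the mutant and because each holds a short motif of a myelin gene factor. The sequences run 5′ to 3′ on the strand of the gene, come from RefSeq on GRCm38.p6, the build of the deposited table, and end before the start of the gene model. Capitals mark ACAAAG, a core that Sox proteins recognise, and CTGGCAC, a core that Myrf recognises, on either strand.
Mag (chr7:30914874-30915113, minus strand): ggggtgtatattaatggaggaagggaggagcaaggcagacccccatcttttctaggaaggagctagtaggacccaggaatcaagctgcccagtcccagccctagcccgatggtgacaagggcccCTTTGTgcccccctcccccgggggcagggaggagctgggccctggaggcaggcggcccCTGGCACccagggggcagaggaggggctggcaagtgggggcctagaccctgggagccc
Cnp (chr11:100574689-100574903, plus strand): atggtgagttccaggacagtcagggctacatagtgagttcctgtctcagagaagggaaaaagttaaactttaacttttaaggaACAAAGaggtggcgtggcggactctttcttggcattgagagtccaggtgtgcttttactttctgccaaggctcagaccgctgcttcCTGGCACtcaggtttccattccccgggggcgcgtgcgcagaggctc
Mobp (chr9:120149492-120149741, plus strand): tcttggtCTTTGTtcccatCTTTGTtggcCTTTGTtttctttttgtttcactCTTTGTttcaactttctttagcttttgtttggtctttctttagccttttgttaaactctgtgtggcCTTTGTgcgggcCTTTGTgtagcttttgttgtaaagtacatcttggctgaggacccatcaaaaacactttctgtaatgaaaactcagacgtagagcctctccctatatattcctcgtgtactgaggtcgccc
Mag and Cnp each hold 1 copy of both cores, whereas the window of Mobp holds 6 copies of the Sox core, all as the reverse complement, and no Myrf core. Windows were searched over the 250 bases before the RefSeq start site for 8 of the 9 genes. Mbp, which also lay below every control sample in the mutant, was left out of this search. ACAAAG was found in 5 of these 8 (Mobp, Mag, Cnp, Opalin and Gpm6b), against 16.5% of 32851 promoter windows of the same length, and CTGGCAC in 2 of 8 (Mag and Cnp), against 4.19%. The related CTGGTAC was found in Mog, against 1.83%. The related ACAATG, present in 10.7% of windows, and TATAAA, present in 12.4%, were found in none of the 8. CCAAT was found in Cldn11 (33.9% of windows) and GGGCGG in Cnp (32.7%). Both strands were read, none of these strings contains another, and a match describes the letters in the window, not an occupied site. The Sox core also stands before Gpm6b and Opalin, whose levels in the mutant were not below all controls.

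Mbp, Mobp and Cnp encode proteins of the cytoplasmic side of myelin. Mbp (ENSMUSG00000041607, chromosome 18, 82475146 to 82585637) was the most abundant gene of the whole table in both genotypes. It was at 23010, 28870, 27340 and 26310 FPKM in the 4 control samples and at 17000, 21260 and 18130 FPKM in the 3 mutant samples. Every mutant sample lay below every control, and the mean of 18797 ± 2207 FPKM (SD, n = 3) was 71.2% of the control mean of 26383 ± 2482 FPKM (SD, n = 4). The log2 fold change was -0.49 with a 95% interval from -0.90 to -0.08, the adjusted p was 0.147 by limma-trend, and the difference did not pass the threshold. Control sample 1 was the lowest control.

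Mobp (ENSMUSG00000032517, chromosome 9, 120149742 to 120181484), a small basic protein of compact myelin, was at 4146, 5154, 4480 and 4393 FPKM in the control samples and at 2960, 4027 and 3327 FPKM in the mutant samples. The groups did not overlap, although mutant sample 2 came near the lowest control, and the mutant mean of 3438 ± 542 FPKM was 75.7% of the control mean of 4543 ± 431 FPKM. With a log2 fold change of -0.41 (95% interval -0.72 to -0.10) the adjusted p of limma-trend was 0.123. It was 0.0472 without mutant sample 2, the single left-out sample that brought Mobp past the threshold.

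Cnp (ENSMUSG00000006782, chromosome 11, 100574904 to 100581728) encodes the cyclic nucleotide phosphodiesterase that keeps cytoplasmic channels in the sheath open. It was at 2580, 2783, 2751 and 2770 FPKM in the control samples and at 1860, 2213 and 1892 FPKM in the mutant samples. All mutant samples were lower, and 3 of the 4 control samples were within a few percent of each other. The mean fell from 2721 ± 94.9 to 1988 ± 195 FPKM, to 73.1% of control (log2 fold change -0.46, 95% interval -0.68 to -0.24, adjusted p = 0.0480, limma-trend). With the replicate block the adjusted p was 0.0605 at a log2 fold change of -0.45. Leaving out control sample 4 alone gave the same fold change, with an adjusted p of 0.0914 by limma-trend. Without 1 sample at a time the adjusted p lay between 0.0272 and 0.150, and the call was lost without any of the samples other than mutant sample 2. Cnp overlaps Dnajc7 on the opposite strand in the GENCODE annotation. Mbp overlaps Rpl21-ps8 and Mog overlaps Gm22388 in the same way, and Mobp overlaps Gm38642 on its own strand. Whether counting used the strand is not given in the sources used here, and a shared strand would not separate the reads of Mobp and Gm38642.

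Mag and Mog are immunoglobulin family proteins of the membrane surface, Mag at the face towards the axon and Mog on the outside of the sheath, and Opalin is a glycoprotein of OL membranes. Mag (ENSMUSG00000036634, chromosome 7, 30899176 to 30914873) was at 2499, 2363, 2618 and 2674 FPKM in the control samples and at 1890, 1941 and 1747 FPKM in the mutant samples. The mutant samples lay close together, with a coefficient of variation of 5.41%, the lowest of the 9 genes in the mutant, and all were below all controls. The mean fell from 2539 ± 138 to 1859 ± 101 FPKM, to 73.2% of control (log2 fold change -0.45, 95% interval -0.65 to -0.24, adjusted p = 0.0437, limma-trend). With the replicate block the adjusted p was 0.0726 at a log2 fold change of -0.42. The fit without control sample 4 alone had the same fold change and an adjusted p of 0.0840 by limma-trend. Without 1 sample at a time the adjusted p lay between 0.0359 and 0.145, and again only the fit without mutant sample 2 kept the call.

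Mog (ENSMUSG00000076439, chromosome 17, 37010743 to 37023398) was at 1406, 1501, 1369 and 1341 FPKM in the control samples and at 1053, 1424 and 1151 FPKM in the mutant samples. Mutant sample 2 lay among the controls and the other two lay below them. The mean of 1209 ± 192 FPKM was 86.1% of the control mean of 1404 ± 69.8 FPKM, with a log2 fold change of -0.23 (95% interval -0.48 to 0.02) and an adjusted p of 0.246 by limma-trend.

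Opalin (ENSMUSG00000050121, chromosome 19, 41062474 to 41077113) was the least abundant of the 9 and had the tightest controls, at 147.9, 150.3, 143.1 and 143.8 FPKM. The mutant samples were at 117.2, 182.0 and 129.8 FPKM, 1 above all controls and the other two below all of them. The means, 146 ± 3.42 FPKM in the control and 143 ± 34.4 FPKM in the mutant, differed by less than the SD of either group, and the interval of the log2 fold change ran from -0.35 to 0.24 around -0.06 (adjusted p = 0.820, limma-trend).

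Cldn11, Mal and Gpm6b span the membrane. Cldn11 (ENSMUSG00000037625, chromosome 3, 31149920 to 31164324), the claudin of the tight junctions of the sheath, was at 1663, 1703, 1687 and 1817 FPKM in the control samples and at 1414, 1693 and 1367 FPKM in the mutant samples. Mutant sample 2 was again within the controls, and the mean of 1491 ± 176 FPKM was 86.8% of the control mean of 1718 ± 68.3 FPKM (log2 fold change -0.21, 95% interval -0.43 to 0.01, adjusted p = 0.224, limma-trend).

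Mal (ENSMUSG00000027375, chromosome 2, 127633226 to 127656695), a proteolipid of glycolipid-rich membranes involved in sorting myelin components, was at 2946, 2972, 2707 and 2909 FPKM in the control samples and at 2177, 3182 and 2329 FPKM in the mutant samples. The highest value of all 7 was that of mutant sample 2, and the lowest values were those of the remaining mutant samples. The mean of 2563 ± 542 FPKM was 88.9% of the control mean of 2884 ± 120 FPKM (log2 fold change -0.19, 95% interval -0.50 to 0.12, adjusted p = 0.425, limma-trend).

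Gpm6b (ENSMUSG00000031342, chromosome X, 166238911 to 166388988) encodes a proteolipid family protein that neurons and astrocytes make as well as OLs. It was at 509.9, 504.5, 462.0 and 480.6 FPKM in the control samples and at 485.1, 688.7 and 592.9 FPKM in the mutant samples. Mutant samples 2 and 3 lay above all controls and mutant sample 1 lay among them. It was the 1 gene of the 9 with a higher mean in the mutant, 589 ± 102 against 489 ± 22.2 FPKM or 120.4% of control. Its log2 fold change of 0.25 had a 95% interval from 0.000466 to 0.51 and an adjusted p of 0.204 by limma-trend.

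**Figure D1:**
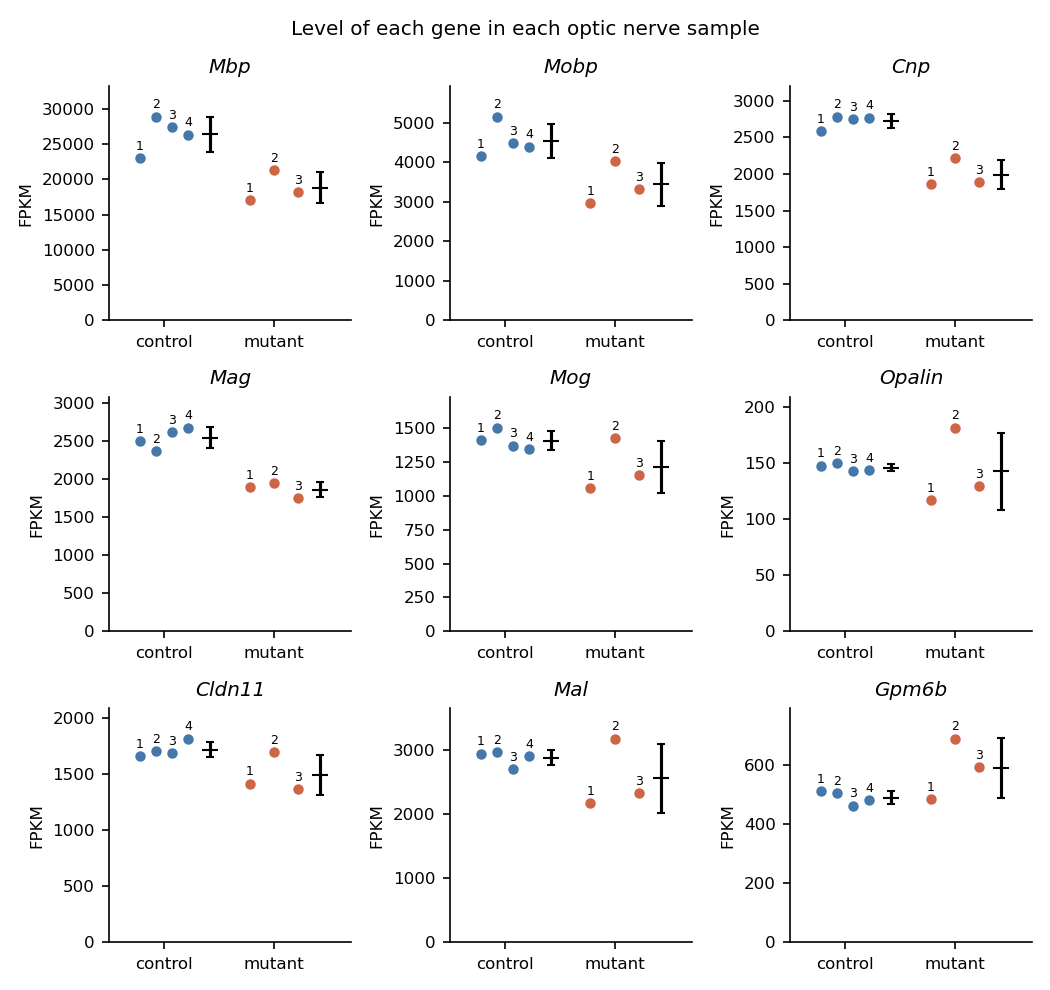
FPKM of each of the 9 genes (vertical axes, each from 0) in the 4 control and 3 mutant optic nerve samples; numbers give the sample, black bars the mean ± SD. Mbp, Mobp, Cnp and Mag lie lower in every mutant sample than in every control, while mutant sample 2 reaches or exceeds the control range in the other 5 panels.

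Of the 9 genes, 2 passed the threshold as lower in the mutant (Mag and Cnp) and 0 as higher, where 1.36% of all tested genes passed as lower and 1.26% as higher. The median log2 fold change of the 9 was -0.23, against 0.05 over all tested genes, and 8 of the 9 values were below 0. In 4 of the 9 all mutant samples were below all controls, a pattern found in 8.26% of all tested genes, and in 0 of 9 they were all above, found in 12.9%. An unadjusted p under 0.05 was reached by 5 of the 9 in limma-trend, and by 24.4% of all tested genes. With the replicate block 0 of the 9 passed, where 1.94% of all genes passed as lower and 6.42% as higher. On the recovered reads, edgeR's quasi-likelihood test called 1 as lower (Mag, with 1.72% of all genes lower). Its likelihood ratio test and DESeq2 each called 4 (Mbp, Mobp, Mag and Cnp), where 4.28% and 5.6% of all genes were called lower. With sample quality weights in limma-trend, Mobp, Mag and Cnp passed as lower and Gpm6b as higher, where 4.45% of all genes passed as lower and 6.55% as higher. The intervals of the called and the uncalled genes overlap, and with the exception of the shares given further on, differences between members were not tested. The optic nerve was measured as a whole, so that fewer OLs and less RNA of these genes per OL cannot be told apart.

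**Figure D2:**
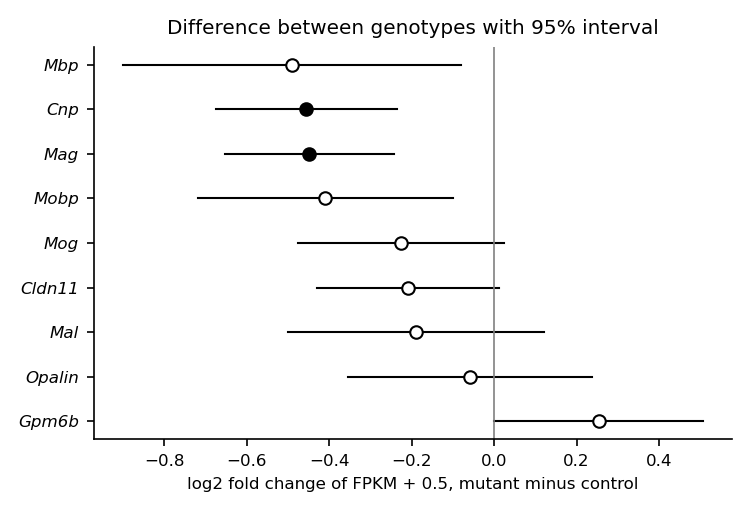
Log2 fold change of FPKM + 0.5 (horizontal axis, mutant minus control) for the 9 genes, with the 95% interval of limma-trend as a line; filled points have an adjusted p under 0.05. Only Mag and Cnp are filled, and Gpm6b is the 1 point above 0.

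The 3 mutant samples differed among themselves in a way that the 9 genes shared. Mutant sample 2 was the highest mutant sample for 9 of the 9 genes, whereas it was the highest of the mutants for 21.4% of all tested genes. Mutant sample 1 was the highest for 48.3% of all tested genes and mutant sample 3 for 30.3%. A highest level in mutant sample 2 was not particular to the 9. Of 33 further myelin proteins, all but Gsn, Gpm6a, Padi2 and Hapln2 were likewise highest in mutant sample 2 among the mutants. Mutant sample 1 was the lowest for 7 genes, and mutant sample 3 for Mag and Cldn11. How often each mutant sample was the lowest over all tested genes was not counted. For Mbp, mutant samples 1, 2 and 3 were at 64.4%, 80.6% and 68.7% of the control mean. For Opalin they were at 80.1%, 124% and 88.7%, so that the same sample was above the controls. The coefficient of variation of the 9 genes ranged from 2.34% to 9.49% over the control samples and from 5.41% to 24.0% over the mutant samples. Skeletal muscle markers were highest in mutant sample 2, with a summed level over 6 genes of 63.7 FPKM, against 2.08 and 3.59 FPKM in the other mutant samples and 0.873 to 1.52 FPKM in the controls. The part of this in the levels of the 9 genes was not tested. Without mutant sample 2 the genes past the threshold were 3, Mobp, Mag and Cnp, with 2.48% of all genes called lower.

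**Figure D3:**
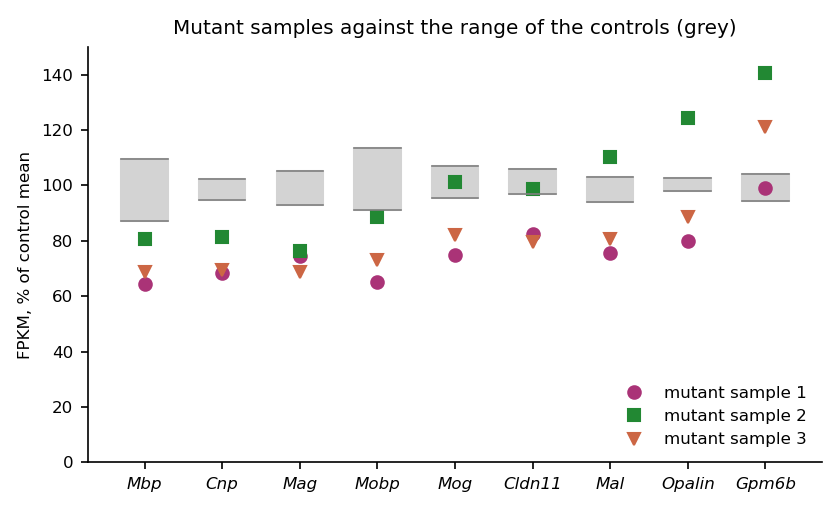
FPKM of each mutant sample as a percent of the control mean (vertical axis from 0) for the 9 genes; grey boxes span the 4 control samples. Mutant sample 2 is the highest mutant point for each gene and is below the grey box for Mbp, Cnp, Mag and Mobp alone.

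Over all 7 samples, the log2 levels of the 8 genes other than Gpm6b were correlated with each other, with Pearson's r from 0.22 to 0.97 and a median of 0.84 over 28 pairs. These points share the difference between genotypes and the scaling of each library. After the group means were subtracted, the median r of the same pairs was 0.81, with a range from -0.10 to 0.98. Mutant sample 2 lay above its group mean for all 9 genes, by 0.06 (Mag) to 0.37 (Opalin) on the log2 scale. These r therefore include the difference of that sample described above, and were not computed without it. Mag moved least with the others inside the groups (median r of the deviations 0.16), whereas Gpm6b, whose median r over the 7 samples was -0.18, had a median of 0.73 inside the groups. Among the mutant samples Gpm6b was highest in mutant sample 2 like the other genes. In control samples 1, 3 and 4 and in mutant sample 3 it lay on the other side of its group mean from Mbp. In control sample 4 Mbp was close to its mean. The r of Gpm6b with Mag inside the groups was -0.08. Among 7054 genes with a mean of at least 10 FPKM, those with the profile most like the mean of the 9 were Plekhb1 (r = 0.996 over the 7 samples), Map7 (0.988), Ninj2 (0.988), Gng7 (0.985) and Arl8a (0.985). Plekhb1 and Ninj2 were also on the list of further myelin proteins.

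Together the 9 genes took a large part of each library. Their share of all normalized counts was 7.97%, 9.48%, 8.95% and 8.79% in the control samples and 5.93%, 7.50% and 6.30% in the mutant samples. The highest mutant share was below the lowest control share. The mean share was 8.80% ± 0.626 in the control (SD, n = 4) and 6.58% ± 0.824 in the mutant (SD, n = 3), a difference of -2.22 percentage points or 74.8% of the control share (two-sided exact permutation test, p = 0.0571, the smallest that 4 against 3 samples allow). Mbp alone took 5.39% ± 0.507 of the control libraries and 3.84% ± 0.450 of the mutant libraries, and the other 8 genes took 3.41% ± 0.131 and 2.74% ± 0.374.

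**Figure D4:**
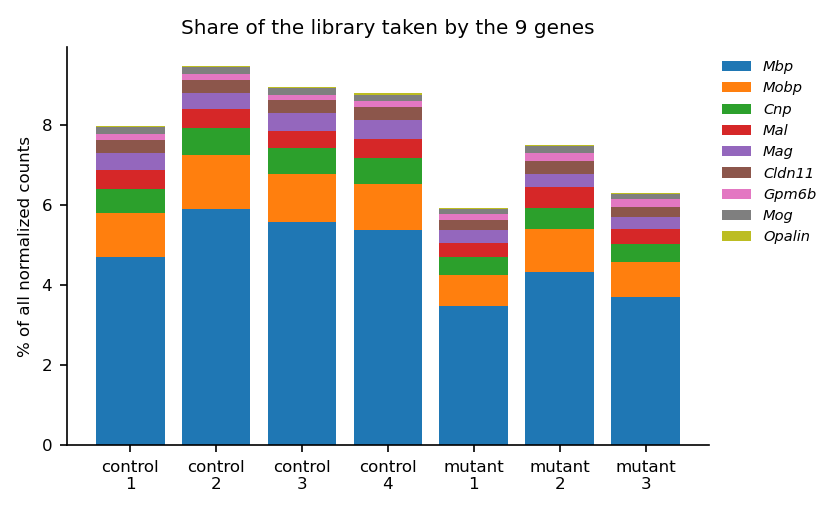
Percent of all normalized counts (vertical axis from 0) taken by the 9 genes in each control and mutant sample, stacked by gene. The bars reach from 7.97% to 9.48% in the controls and from 5.93% to 7.50% in the mutants, and Mbp is the largest block in each.

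The make-up of this group of messages was compared as the share of each gene in the summed FPKM of the 9, which does not depend on how a library was scaled. These shares sum to a fixed total, so a lower share of Mbp raises others. Mbp made up 59.1%, 62.8%, 62.8% and 61.4% of the sum in the control samples and 58.7%, 58.1% and 59.1% in the mutant samples. All mutant shares were below all control shares, by a narrow margin from control sample 1, and the means were 61.5% ± 1.71 and 58.6% ± 0.530. Gpm6b made up 1.31%, 1.10%, 1.06% and 1.12% of the control sums and 1.68%, 1.88% and 1.93% of the mutant sums, each mutant share above each control share. Mog (3.29% ± 0.226 in the control, 3.76% ± 0.127 in the mutant), Cldn11 (4.02% ± 0.281 and 4.66% ± 0.214) and Opalin (0.343% ± 0.025 and 0.442% ± 0.049) also had larger shares in every mutant sample. With Mbp left out of the sum, those of Mog and Cldn11 overlapped between the groups and that of Cnp was lower in every mutant sample (16.5% ± 0.370 in the control, 15.0% ± 0.573 in the mutant), while Opalin and Gpm6b stayed above the controls. With Mbp in the sum, each of these 5 differences had a two-sided exact permutation p of 0.0571, the smallest possible, and 0.103 after adjustment over the 9 shares, so none passed. The shares of Mobp (10.6% and 10.7%), Mag (5.95% and 5.84%), Cnp (6.37% and 6.21%) and Mal (6.76% and 7.93%) overlapped between the groups. By mean FPKM among all genes, Mbp stayed at rank 1, Mobp went from rank 8 to rank 11, Cnp from 15 to 17, Mag from 19 to 22 and Mog from 32 to 39, while Gpm6b went from 88 to 73.

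Further myelin proteins were read beside the 9. Of 33 such genes, all tested, 4 passed as lower and 0 as higher, where 1.36% and 1.26% of all tested genes did. Of the 33, 31 had a log2 fold change below 0, and the median was -0.22. Sirt2, a deacetylase of the sheath, went from 2615 ± 103 to 1752 ± 167 FPKM (log2 fold change -0.58, adjusted p = 0.0265, limma-trend). Gsn, which severs actin filaments, had a log2 fold change of -0.44 (adjusted p = 0.0437, limma-trend), and Cadm4, an adhesion molecule of the glial side of the axon contact, of -0.32 (0.0486). Without mutant sample 2, 14 of the 33 passed as lower, without mutant sample 1 it was 1, and without mutant sample 3 it was 0. Over all 13866 tested genes, 344, 83 and 5 passed as lower in these fits. With the replicate block 5 of the 33 passed as lower, where 1.94% of all genes did. Sirt2 was among the 5, but not Gsn (adjusted p = 0.0691, limma-trend) or Cadm4 (0.0674).

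The genes that control myelin gene transcription and OL differentiation had lower means too. Of 13 such regulators, 3 passed as lower (Sox8, Olig2 and Zfp488) and 0 as higher, with a median log2 fold change of -0.31 and all 13 values below 0. Over all tested genes 1.36% passed as lower. Olig2, the factor of the whole lineage, went from 73.9 ± 5.20 to 54.8 ± 6.12 FPKM (log2 fold change -0.43). Sox10 and Myrf, whose cores were searched in the promoters, were below all controls in every mutant sample, at 109.8 ± 2.27 against 143 ± 14.4 FPKM and 155 ± 13.9 against 196 ± 9.68 FPKM, and did not pass (adjusted p = 0.0502 and 0.0522, limma-trend). With the replicate block 5 of the 13 passed as lower, Sox10 among them (adjusted p = 0.0473, limma-trend), where 1.94% of all genes did. Olig2 regulatory elements drive Cre in the mutant and not in the control, so the groups differ in the Cre allele as well as in Fasn. The part of the Cre allele in the lower level of Olig2 was not tested. Nor was its part in the levels of the other regulators and of the myelin genes.

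Markers of OL stages were read in the same way. Of 8 markers of newly formed OLs, 3 passed as lower (Tmem2, Neu4 and Gpr17) and 0 as higher, with a median log2 fold change of -0.35, and 4 passed with the replicate block. Of all genes 1.36% passed as lower, and 1.94% with the replicate block. The summed level of these 8 markers was 632 to 675 FPKM in the controls and 482 to 505 FPKM in the mutants. In this sum mutant samples 2 and 3 were close, at 503 and 505 FPKM. Singly, Neu4, Enpp6, Sema5a and Tcf7l2 were highest in mutant sample 2 among the mutants, and the remaining markers were not. Of 8 OPC markers 1 passed as lower (Cspg4), with a median of -0.25, and with the replicate block 2 passed as lower and 1 as higher. Of 10 markers of mature OLs, 2 passed as higher (Klk6, a secreted protease, at 26.0 ± 4.39 against 9.84 ± 1.34 FPKM, and Pmp22, better known from peripheral myelin, at 129.5 ± 16.4 against 93.1 ± 3.27 FPKM) and 0 as lower, with a median of 0.06, against 0.05 over all genes, and of -0.01 on the normalized counts. The remaining 8 of that list, which include Apod, Trf and Car2, did not pass. Under the block 3 of the 10 passed as higher, the third being Dock5 (adjusted p = 0.114 without the block and 0.0333 with it). Of all genes 1.26% passed as higher without the block, and 6.42% with it.

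Markers of cells other than OLs were read for the same samples. Of 8 astrocyte markers, 4 passed as higher in the mutant (Gja1, Aldoc, Slc1a2 and Aldh1l1), all 8 had a log2 fold change above 0 with a median of 0.59, and their summed level was 3012 to 3446 FPKM in the controls and 3971 to 4748 FPKM in the mutants. Of 8 meningeal fibroblast markers 0 passed, with a median of 0.59 and a summed level of 1943 to 2737 FPKM in the controls and 2602 to 4952 FPKM in the mutants, the highest in mutant sample 1. Among 8 endothelial and mural markers 0 passed (median 0.32, 205 to 257 against 257 to 297 FPKM), and among 8 microglia markers 0 passed (median 0.14, 293 to 355 against 332 to 374 FPKM). Markers of neurons and retina summed to 12.6 to 19.5 FPKM in the controls and 11.1 to 26.7 FPKM in the mutants, and Schwann cell markers to 17.4 to 22.3 and 14.8 to 21.95 FPKM. No marker was at 0 in all samples, and Mbp alone stood above each of these sums in every sample. With the replicate block 6 astrocyte, 6 meningeal, 2 endothelial and mural and 1 microglia marker passed as higher. Of all genes 6.42% did so with the block and 1.26% without it. Without mutant sample 1, 0 regulators and 1 newly formed OL marker passed as lower and 5 astrocyte markers as higher. In that fit 83 of all genes passed as lower and 103 as higher. Without mutant sample 3 none of these lists, nor those of OL stages and regulators, had a gene past the threshold of limma-trend, where 6 of all genes passed and 2765 had an unadjusted p under 0.05. The part of these markers in the differences of the 9 genes was not tested.

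**Figure D5:**
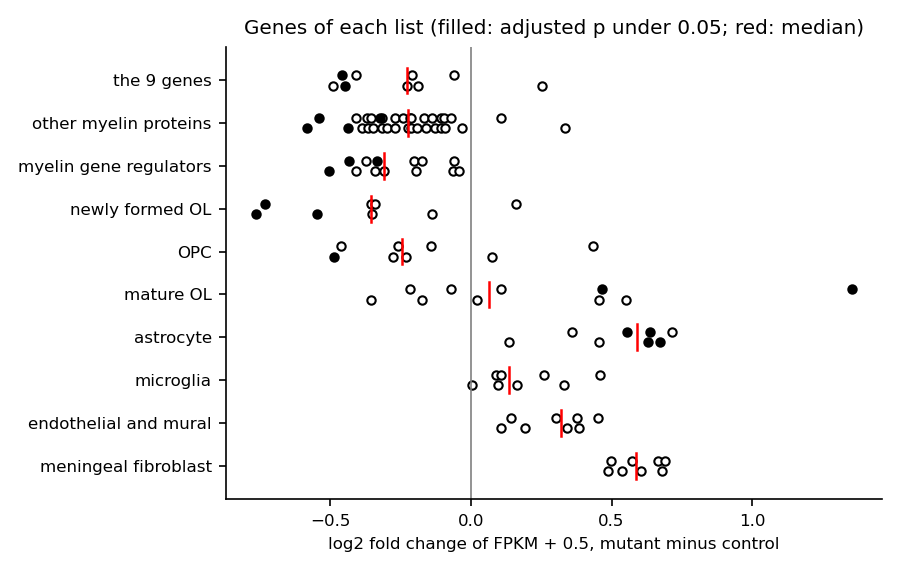
Log2 fold change of FPKM + 0.5 (horizontal axis, mutant minus control) for the genes of each list, 1 point per tested gene, filled where the adjusted p was under 0.05, with the median of the list as a red line. The medians of the 9 genes, the further myelin proteins, the regulators, newly formed OL and OPC markers lie below 0, and those of the astrocyte, microglia, endothelial and mural, and meningeal lists above it. That of the mature OL list, 0.06, is close to the 0.05 of all genes and is -0.01 on the normalized counts.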

How the data were processed

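RNA was measured in whole optic nerves of 4 control and 3 mutant mice at P14, and groups and replicate numbers were read from the labels. Poly-A RNA was made into stranded libraries and sequenced from a single end. According to the submitters' processing notes and the study's methods, reads were aligned with STAR 2.5.1b to GRCm38 and counted with RSEM 1.2.22 on Ensembl genes. The authors deposited 1 table with 2 kinds of value for each sample: a normalized count, a signal per gene made from the RSEM count with a size factor whose method is not given in the sources used here, and FPKM. FPKM recomputed from the deposited normalized counts and gene widths differed by at most 0.284%. All 14 value columns were used. The authors' own log2 ratio, p-value and false discovery rate columns were not used.

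FPKM was tested with limma 3.58.1 (limma-trend, R 4.3.3) on log2(FPKM + 0.5), with genotype as the only term, for genes of at least 0.5 FPKM in at least 3 samples. Fold changes on this scale understate those of low genes. Reads were recovered from the normalized counts: 75.6% to 80.6% of values between 0.5 and 10 reads came out whole to within 0.05 reads, and the rest, RSEM's fractional estimates, were rounded. Those reads were tested with edgeR 4.0.16 and DESeq2 1.42.0 as alternatives. The code was tested on simulated data. Shares were tested with two-sided exact permutation tests over samples (SciPy 1.17.1). The samples were separate mice.

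The pairing of replicate numbers was checked by correlating deviations from the group means over 13866 genes: same-numbered samples had r = 0.168, 0.409 and 0.270, other pairs -0.353 to 0.205, so the replicate block is given where it changes a call. This rests on the data and not on a label.

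Genes named were the 9 genes, Fasn, the genes of each list past the threshold with others of high mean level, and the 5 genes most like the mean profile, where a gene not reported here was passed over. Sox10 and Myrf were named after their values were seen. The members and lists were chosen with earlier results of these data known. Sept4, Sept8 and Zfp24 (3 genes) were matched by gene identifier. Alternatives covered the pseudocount, the filter, the scaling, the replicate block, sample weights, the tool and each left-out sample.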

Additional observations from a re-analysis of the deposited data

Results flagged for a closer look

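In 32 groups of 4 control samples, the gap between the highest or lowest sample and its nearest neighbour, divided by the range, was compared with Dixon's 95% critical value, which chance passes in about 1 of 20 groups, and 3 groups passed. Control sample 1 had a Cnp level of 2580 FPKM, below the other controls at 2751 to 2783 FPKM but above all mutant samples. Control sample 1 also had the largest share of Opalin in the summed FPKM of the 9 genes, 0.380% against 0.327% to 0.336% in the other controls. Control sample 4 had a summed microglia marker level of 355 FPKM, against 293 to 302 FPKM in the other controls. The groups of 3 mutant samples were too small for this comparison.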

How the results depend on the processing

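Over 19 alternatives for each of the 9 genes, 141 of 171 fold changes kept their direction and their side of the threshold, 21 lost significance, 7 gained it, 1 (Opalin) changed direction and 1 (Mbp after quantile normalization) became 0. Of the 9 genes, 0 passed without a filter on low levels, on the normalized counts, after quantile normalization and with the replicate block, 1 passed by edgeR's quasi-likelihood test, 4 by its likelihood ratio test, by DESeq2 and with sample quality weights, and 0 to 3 with 1 sample left out. Over all genes, where 363 passed (175 higher and 188 lower), 95 passed without the filter, 1159 with the replicate block, 1525 with weights, 1342 by the likelihood ratio, 1714 by DESeq2 and 6 to 907 with 1 sample left out (6 without control sample 3 and 6 without mutant sample 3, 907 without mutant sample 2). Without the filter 19291 genes were tested instead of 13866. The cause of these changes, with or without the filter, was not tested. The split between higher and lower moved with scaling, to 103 and 267 on normalized counts, 141 and 281 after quantile normalization and 144 and 262 with library totals that leave out the 9 genes. Mag had -0.45 without the filter (adjusted p = 0.141, limma-trend), -0.53 on normalized counts (0.0575), -0.31 after quantile normalization (0.155), -0.42 with the replicate block (0.0726) and -0.48 to -0.40 with 1 sample left out. Cnp had -0.46 (adjusted p = 0.154, limma-trend), -0.53 (0.0876), -0.38 (0.0963) and -0.45 (0.0605) in the same order, -0.50 by edgeR's quasi-likelihood test (0.0645) and -0.54 to -0.41 with 1 sample left out. Mobp passed with -0.40 under weights, -0.45 by the likelihood ratio and -0.44 by DESeq2, and ranged from -0.53 to -0.31 with 1 sample left out. Mbp passed with -0.54 by the likelihood ratio and -0.53 by DESeq2, and had 0 after quantile normalization, which gives the top gene of every sample the same value. Gpm6b passed as higher with weights (0.32). Opalin ranged from -0.24 to 0.07 with 1 sample left out (0.0716 without mutant sample 1, the 1 change of direction), and its share of normalized counts from -0.00419 to 0.00177 percentage points. The share of Mobp in the sum of the 9 differed by -0.0643 to 0.324 points with 1 sample left out, by -0.0248 with the replicate block and by -1.75 without Mbp in the sum (where Cnp differed by -1.53 and Mag by -1.33), and that of Mag by -0.454 to 0.159 with 1 sample left out. The replicate block changed no other call among the 9. Each of the 9 had at least 6549 reads in every sample. The exact tests of shares, with 4 against 3 samples, cannot reach 0.05.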
